A study of Mus musculus with 16 samples.

Results

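Macrophage and myeloid genes were followed in the developing palate of mouse embryos in which Erk2 had been deleted by Wnt1-Cre. The 28 genes were chosen by name as markers and effectors of macrophages and other myeloid cells, out of 18194 genes with a probe set of their own on the array. RNA of palate mesenchyme was hybridised to 16 one-colour Affymetrix expression arrays, and the deposited values are on a log2 scale. The series text speaks of primary cells from the palate and the extraction protocol of tissue, so whether macrophages came with intact tissue or through a culture is not settled by the labels. Mutants were Erk2 fl/fl; Wnt1-Cre, with 5 arrays at stage E14.5 (days of embryonic development) and 3 at E13.5. Controls were labelled Erk2 fl/fl, or wild-type in the titles, with 5 arrays at E14.5 and 3 at E13.5. All embryos were on the C57BL/6J strain. Wnt1-Cre is active in the neural crest, from which palate mesenchyme descends, while macrophages are of haematopoietic origin and lie outside that lineage. The level of Erk2 was not analysed here, and expression gives no check of the genotype labels. The number of embryos behind an array is not stated, so a p-value covers the spread between arrays alone, which may be technical.

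Macrophages enter embryonic tissues before blood forms in the bone marrow, and they engulf dying cells during shaping of the face. Their growth and survival depend on the receptor Csf1r, and the transcription factor PU.1, encoded by Spi1, drives their gene programme. Receptors for antibody and for cell debris signal through the adaptors Tyrobp and Fcer1g. The C1q chains, which tag debris for uptake, are made mainly by macrophages. In bulk RNA, fewer macrophages and less RNA per macrophage cannot be told apart.

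Of the 28 genes, 19 passed the filter on low values, which asked for a log2 value of 4 or more on at least 3 arrays. The 9 that did not were Fcgr1, Cd14, Trem2, Cd68, Spi1, Ptprc, Itgam, Itgb2 and Cybb, and each had 0 arrays at 4. Itgam, the integrin chain CD11b, lay below the median of its own array on 16 of 16 arrays. Cd14, Trem2 and Itgb2 did so on 15 arrays each. Of the palate mesenchyme genes, which are markers of the labelled tissue, 12 of 12 were tested. Their per-array mean was 8.42 to 8.61 in E14.5 mutants and 8.50 to 8.59 in E14.5 controls. It was 8.73 to 8.82 in E13.5 mutants and 8.86 to 9.02 in E13.5 controls, which did not overlap. At E13.5, 11 of 12 genes had a mutant minus control difference below 0 and none was called. Their median was −0.11, beside −0.044 over all tested genes, of which 13.5% had every mutant array below every control array. Csf1r, Tyrobp and the C1q chains passed the filter, while both myeloid integrin chains in the list did not. Of 12 lymphocyte genes, 10 lay below the array median on all arrays. Some genes of other tissues, picked after their values were seen, were as high as the mesenchyme genes. At E14.5 the globin gene Hbb-y had a mean of 11.75 in mutants and 11.86 in controls. The epithelial gene Epcam was at 9.45 and 9.20, and the muscle gene Actc1 at 9.65 and 9.23. The arrays therefore do not hold mesenchyme RNA alone.

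Promoter sequences are shown for the members that the results below turn on: Cx3cr1, which had the smallest p at E14.5, Fcgr3 and Ctss, which followed the other members most closely between arrays, and the chains C1qb and C1qc, whose stage differences had opposite signs. Each is the 250 bases before the gene start in RefSeq on build GRCm38.p6, read 5′ to 3′ on the gene's strand, and capitals mark GAGGAA or AGGAAGT on either strand. Fcgr3 has 2 listed starts, and the window of the first listed one is shown.
Cx3cr1, chr9:120068297-120068546, minus strand: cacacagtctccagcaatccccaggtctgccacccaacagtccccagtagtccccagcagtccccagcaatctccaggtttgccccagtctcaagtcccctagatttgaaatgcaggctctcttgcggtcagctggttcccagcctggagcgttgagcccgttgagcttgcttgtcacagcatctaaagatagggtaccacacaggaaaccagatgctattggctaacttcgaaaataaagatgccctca
Fcgr3, chr1:171059404-171059653, minus strand: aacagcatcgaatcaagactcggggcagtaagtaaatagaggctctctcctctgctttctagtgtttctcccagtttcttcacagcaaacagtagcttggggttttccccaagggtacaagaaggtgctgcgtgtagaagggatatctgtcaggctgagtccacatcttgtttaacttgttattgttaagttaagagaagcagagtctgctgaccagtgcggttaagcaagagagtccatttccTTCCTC
Ctss, chr3:95526536-95526785, plus strand: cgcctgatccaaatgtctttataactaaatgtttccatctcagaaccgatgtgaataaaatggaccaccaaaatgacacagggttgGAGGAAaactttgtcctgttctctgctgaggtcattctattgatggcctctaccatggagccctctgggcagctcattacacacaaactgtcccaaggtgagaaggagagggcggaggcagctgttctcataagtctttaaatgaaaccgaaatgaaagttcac
C1qb, chr4:136886201-136886450, minus strand: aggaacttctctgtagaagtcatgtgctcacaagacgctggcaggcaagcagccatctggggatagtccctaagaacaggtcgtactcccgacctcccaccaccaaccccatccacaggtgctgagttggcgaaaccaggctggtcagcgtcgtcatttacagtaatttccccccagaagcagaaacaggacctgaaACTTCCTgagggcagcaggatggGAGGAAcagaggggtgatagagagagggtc
C1qc, chr4:136892915-136893164, minus strand: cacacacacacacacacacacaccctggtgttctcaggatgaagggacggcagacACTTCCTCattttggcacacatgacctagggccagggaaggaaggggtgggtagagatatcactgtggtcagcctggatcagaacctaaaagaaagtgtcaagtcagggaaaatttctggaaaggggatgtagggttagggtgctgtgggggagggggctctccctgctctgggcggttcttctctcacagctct
Both letter strings are cores of the sites that PU.1 and other ETS factors bind, and GAGGAAGT holds both. Of the 28 genes, 20 had an entry in the RefSeq table. A gene was counted below if the window of any of its listed starts held the string, so genes with more starts had more windows. GAGGAA stood in the window of 12 of these 20 genes (60%), against 25.9% of 27025 genes. AGGAAGT stood in 5 of 20 (25%), in C1qb, C1qc, Fcgr1, Lyz2 and Ptprc, against 8.8% of all genes. The full GAGGAAGT stood in C1qc alone of the 20 (5%), against 2.79% of all genes. No match was found for Cx3cr1. A match is a description of the letters and says nothing of binding.

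At E14.5, no macrophage gene passed the test between mutants and controls. With limma and Benjamini-Hochberg adjustment over 11116 genes, 0 of 19 tested members had an adjusted p under 0.05, where 2.63% of all tested genes did. At an unadjusted p under 0.05 there were 3 of 19, Cx3cr1, Adgre1 and Fcer1g, against 17.3% of all genes. The differences ran from −0.27 to 0.17, with 9 above 0 and 10 below, and their median was −0.002 beside 0.015 over all tested genes. For 19 of 19 tested members the 95% interval of the difference lay within a 1.5-fold change in either direction. The share of all tested genes within this limit was not counted at either stage. Below the filter, the interval of Ptprc went beyond it, from 0.656-fold to 0.973-fold. Of the 19 tested members, Ms4a7, C1qc and Mpeg1 passed the filter through E13.5 arrays only. On every E14.5 array they were below a log2 value of 4, so their E14.5 intervals rest on weak signal.

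**Figure D1:**
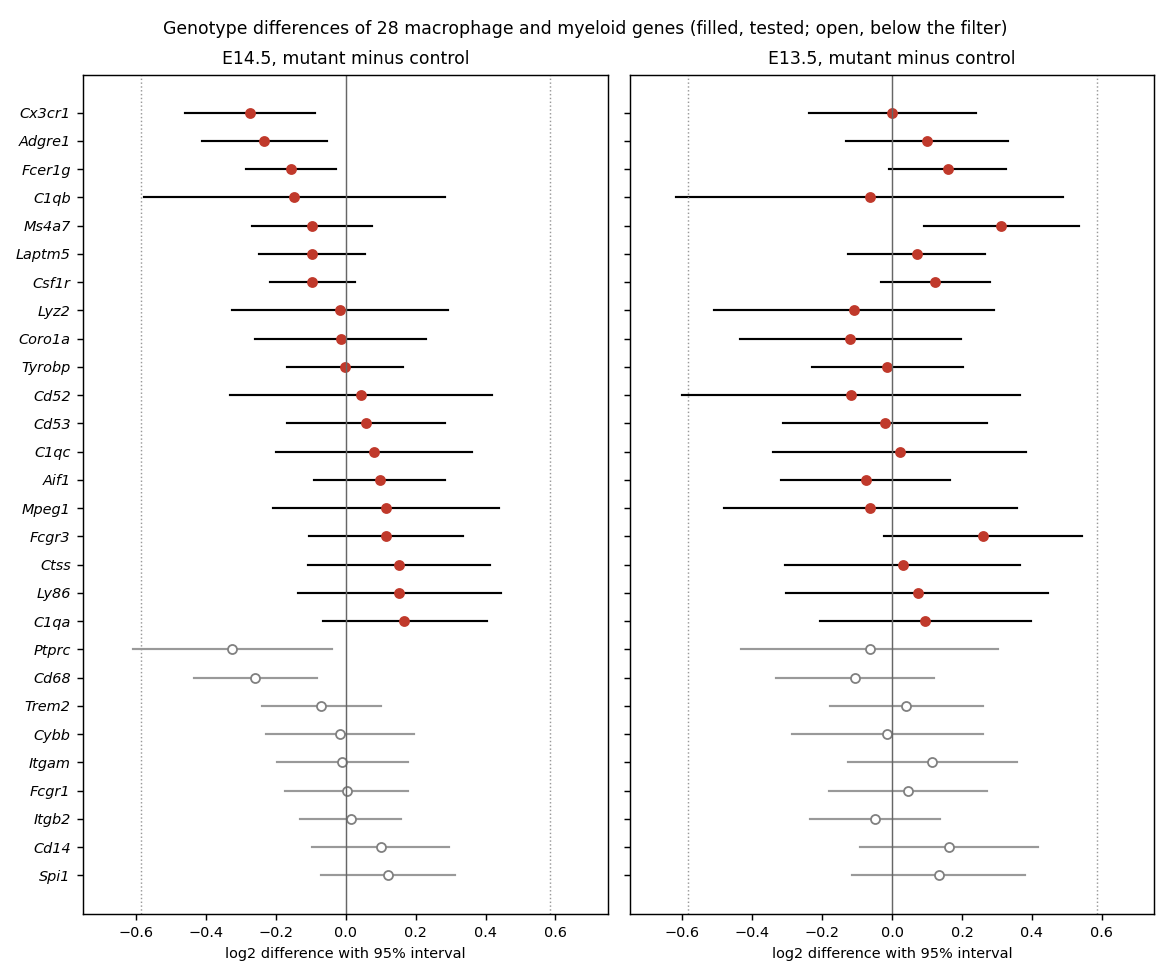
Genotype differences on the log2 scale (x axis), mutant minus control, for the 28 macrophage and myeloid genes (y axis) at E14.5 (left) and E13.5 (right). Points are fitted differences, lines are 95% intervals, filled points passed the filter and open points did not, and dotted lines stand at a 1.5-fold change. At E14.5 all 19 tested intervals lie within those lines, though Ms4a7, C1qc and Mpeg1 passed the filter through E13.5 arrays only.

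Cx3cr1 encodes the receptor by which macrophages sense the chemokine fractalkine, and it had the most negative difference of the tested members. Its log2 values were 4.65, 4.61, 4.56, 4.58 and 4.59 in E14.5 mutants, against 5.06, 4.68, 4.82, 4.75 and 5.03 in E14.5 controls. Every mutant array lay below every control array, which held for 1 of the 19 tested members, against 1.88% of all tested genes lower and 2.53% higher in this way, or 4.41% in all. The difference was −0.27 ± 0.09 (SE), or 0.828-fold, with a limma p of 0.00702 and an adjusted p of 0.115. It was −0.24 in batch 1 and −0.29 in batch 2, the array batches that the E14.5 labels name, and its adjusted p ran from 0.077 to 0.53 over all other settings. A second Cx3cr1 probe set, near the low end of the scale, differed by 0.00. Csf1r, the receptor for macrophage growth, had log2 values of 7.03, 7.08, 7.07, 7.23 and 7.09 in E14.5 mutants, against 7.28, 7.19, 7.25, 7.16 and 7.10 in E14.5 controls. The groups overlapped, and the interval of the difference went from −0.22 to 0.03 on the log2 scale.

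Recognition receptors varied in both directions. Adgre1, the macrophage surface protein F4/80, had log2 values of 4.97, 4.88, 4.92, 5.17 and 5.00 in E14.5 mutants, against 5.37, 5.33, 5.15, 4.90 and 5.35 in E14.5 controls. Controls 3 and 4 lay within the range of the mutants, and controls 1, 2 and 5 lay above it. The difference was −0.23 ± 0.08 (SE), with a limma adjusted p of 0.164. Without E14.5 control 4 it was −0.31 with an adjusted p of 0.032, where 2.30% of all tested genes passed, so 1 array decides this call. It was −0.42 in batch 1 and −0.10 in batch 2. Ly86, a partner of a Toll-like receptor homologue, differed by 0.15 and the Fc receptor gene Fcgr3 by 0.12, both with overlapping groups. Ms4a7, a membrane protein of macrophages, differed by −0.10. Among receptors below the filter, Cd68, a lysosomal glycoprotein, had log2 values of 3.15, 3.21, 3.09, 3.12 and 3.15 in E14.5 mutants, against 3.52, 3.33, 3.49, 3.34 and 3.34 in E14.5 controls. These did not overlap either, and with no filter the limma adjusted p was 0.161. The share of all genes below the filter that were apart in this way was not counted.

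The adaptors differed from each other. Fcer1g, the gamma chain of Fc receptors, had log2 values of 6.25, 6.03, 6.18, 6.20 and 6.11 in E14.5 mutants, against 6.33, 6.25, 6.40, 6.13 and 6.44 in E14.5 controls. Control 4 lay among the mutants and controls 1, 3 and 5 above them all, and the difference was −0.16 ± 0.06 (SE) with a limma adjusted p of 0.193. It was −0.15 in batch 1 and −0.16 in batch 2. Tyrobp, the adaptor DAP12, had log2 values of 6.84, 6.67, 6.47, 6.50 and 6.74 in E14.5 mutants, against 6.66, 6.57, 6.73, 6.48 and 6.80 in E14.5 controls. The groups lay on top of each other, and the 95% interval of the fold ran from 0.889 to 1.12.

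The C1q chains showed no common direction at E14.5. C1qa had log2 values of 5.92, 5.42, 5.74, 5.57 and 5.65 in E14.5 mutants, against 5.66, 5.40, 5.77, 5.39 and 5.23 in E14.5 controls. C1qb had log2 values of 6.99, 6.66, 6.94, 6.95 and 6.36 in E14.5 mutants, against 6.85, 6.83, 6.93, 6.37 and 7.64 in E14.5 controls. The arrays of both genotypes were mixed for each chain, and single arrays stood out, such as control 5 for C1qb. The differences were 0.17 for C1qa, −0.15 for C1qb and 0.08 for C1qc, and the widest interval, that of C1qb, ran from −0.58 to 0.28. On its other probe sets C1qb differed by 0.01 and −0.16.

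Leukocyte genes with roles in signalling and movement gave no call between genotypes. Laptm5, a lysosomal protein of blood cells, had log2 values of 7.41, 7.38, 7.61, 7.51 and 7.42 in E14.5 mutants, against 7.64, 7.73, 7.55, 7.35 and 7.53 in E14.5 controls. The difference was −0.10, with overlapping groups. On the other Laptm5 probe sets it was −0.14, −0.14, 0.12 and −0.01, so its sign depended on the probe set. The other tested members of this role, Cd52, Cd53, Coro1a and Aif1, differed by −0.01 to 0.10. Ptprc, the leukocyte phosphatase CD45, was below the filter and differed by −0.32, with −0.62 in batch 1 and −0.13 in batch 2. Among effectors, the lysosomal protease gene Ctss had log2 values of 7.88, 7.08, 7.60, 7.63 and 7.58 in E14.5 mutants, against 7.53, 7.27, 7.40, 7.21 and 7.58 in E14.5 controls. Mutant 2 was the lowest of all 10 arrays and mutant 1 the highest, and the difference was 0.15. Lysozyme, encoded by Lyz2, differed by −0.02 and the pore-forming protein Mpeg1 by 0.11.

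**Figure D2:**
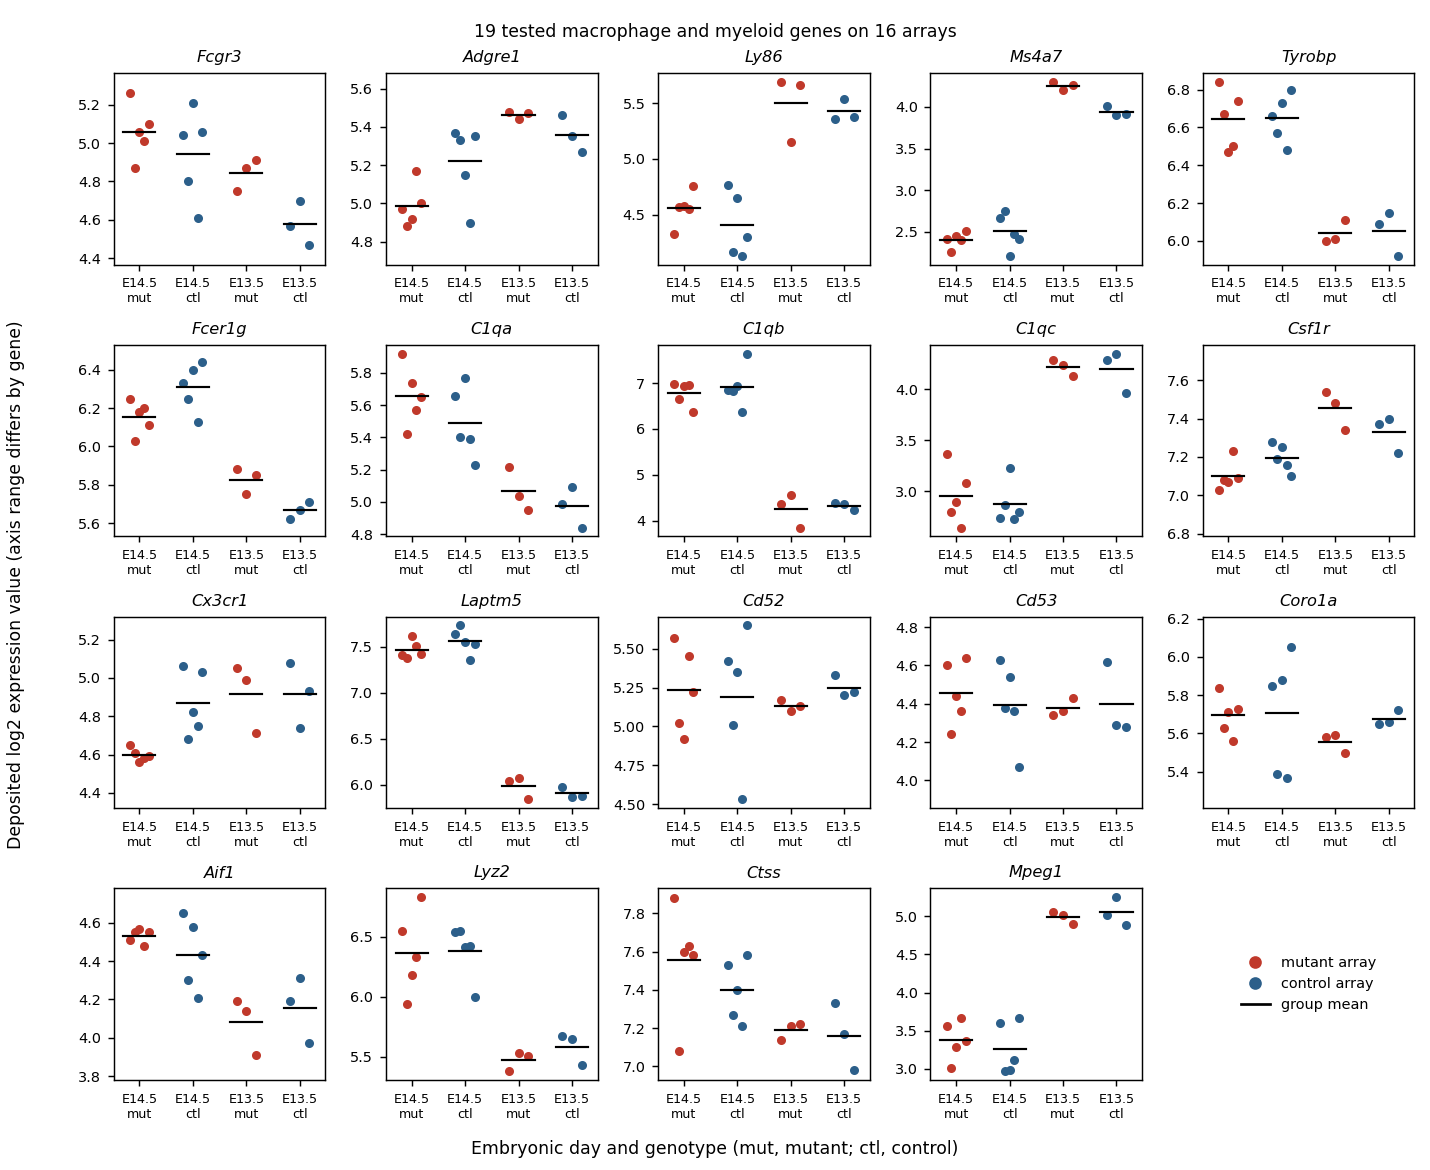
Deposited log2 expression values (y axis, range set per gene) of the 19 tested genes on each of the 16 arrays, by embryonic day and genotype (x axis). Points are arrays and bars are group means. At E14.5 the genotypes overlap in every panel except that of Cx3cr1.

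At E13.5 no member passed the test either. Of the 19 tested members, 0 had a limma adjusted p under 0.05, against 0.0990% of all tested genes, and 1 had an unadjusted p under 0.05, against 9.54%. The differences ran from −0.12 to 0.31 with a median of 0.022, beside −0.044 over all tested genes. Of the members, 11 were above 0 and 8 below. For 5 members the mutant and control arrays were fully apart, against 17.9% of all tested genes. Ms4a7, Fcgr3 and Fcer1g were the 3 higher ones, against 4.32% of all genes, and Cd52 and Coro1a, an actin-binding protein of leukocytes, the 2 lower ones, against 13.5%. The interval lay within a 1.5-fold change for 17 of 19 members.

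Ms4a7 had log2 values of 4.30, 4.20 and 4.26 in E13.5 mutants, against 4.01, 3.90 and 3.92 in E13.5 controls. Each mutant array was above each control array. Ms4a7 reached a log2 value of 4 on the 3 E13.5 mutant arrays and 1 E13.5 control array, so it entered the test through the group in which it is high. The difference was 0.31 ± 0.10 (SE), or 1.24-fold, with a limma p of 0.00903 and an adjusted p of 0.379. Fcer1g was 5.88, 5.75 and 5.85 in E13.5 mutants, against 5.62, 5.67 and 5.71 in E13.5 controls, a difference of 0.16 with an adjusted p of 0.546 by limma. Fcgr3 was 4.75, 4.87 and 4.91 in E13.5 mutants, against 4.57, 4.70 and 4.47 in E13.5 controls. Cx3cr1 differed by 0.00 at this stage, and Csf1r by 0.12.

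The difference of the genotype effects between the stages was tested in the same fit. Of the 19 members, 0 passed after adjustment, against 0.117% of all tested genes, and 4 had an unadjusted p under 0.05, against 10.4%. These were Fcer1g, at −0.32 with a limma adjusted p of 0.290, Ms4a7, at −0.41 with an adjusted p of 0.303, Adgre1, at −0.33 with 0.427, and Csf1r, at −0.22 with 0.442. All 4 had a positive genotype difference at E13.5 and a negative one at E14.5. They were picked by a small p of this contrast, which favours opposite signs, so the signs are not a separate result. Ms4a7 reached a log2 value of 4 on E13.5 arrays only. The contrast also sets arrays of different scales against each other, with medians of all probe sets near 3.4 at E13.5 and 1.6 at E14.5. The sex read from transcripts was not balanced at E14.5, with 3 of 5 mutant arrays and 1 of 5 control arrays female, and with sex as a term 0 members passed at either stage.

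The macrophage genes varied together between arrays of one group. After the group and batch means were removed, the median correlation of a member with the mean of the others over 16 arrays was 0.55, and it ran from 0.01 for Ms4a7 to 0.82 for Fcgr3. It was above 0.5 for 10 members and below 0 for none. The other 11097 genes had a median correlation of 0.08 with the mean of the members. Of the other lists, mean deviations correlated with it most for ITAM and integrin signalling, at 0.85 over 5 tested genes. Next were resident macrophages at 0.67 (9 tested genes) and megakaryocytes and platelets at 0.61 (3), with Pf4 in both lists. Monocytes were at 0.55 (4) and blood vessel endothelium at 0.51 (12). Other myeloid lists were lower, such as lysosomal proteases at 0.48 (11) and toll-like receptors at 0.41 (3). Fc and complement receptors were at 0.23 (2), myeloid transcription factors at 0.1 (8) and microglia at −0.03 (2). Neutrophils were at −0.19 (3) and osteoclasts at −0.36 (5). The tested microglia genes were Tmem119 and Olfml3, while P2ry12 and Siglech, among others, were below the filter. Few genes carry most of these correlations, which describe the lists and not cell types. These are descriptions over arrays that share their normalization and labelled batches. The most alike pair was Fcer1g and Cd52, a surface glycoprotein of leukocytes, at 0.83, and the median over all 171 pairs was 0.30. Among the C1q chains, C1qa and C1qc reached 0.73, while C1qb was at 0.04 with C1qa and 0.12 with C1qc. The lowest pair was C1qb and Lyz2 at −0.45. The C1qb values rest on the 1 probe set used for it, and its other probe sets were not correlated with the members. Genes outside the list were ranked by correlation with the member mean, leaving out RIKEN clones, predicted genes and clone-like symbols. The 10 highest were Nrros at 0.92, Iqcb1 and Pofut1 at 0.88, Ubp1, Coprs, Aldh3a2 and Casp8 at 0.87, and Tpcn2, Gdpgp1 and Luc7l3 at 0.85.

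Single arrays stood apart in this shared level. E14.5 control 4 was lowest, at −0.204 from its fitted group value on average, with 17 of 19 members below. E14.5 mutant 2 was at −0.162, with 18 of 19 below. E14.5 control 1 was the highest, at 0.126, with 16 members above. The mean over the tested members was 5.35 ± 0.10 in E14.5 mutants and 5.35 ± 0.14 in E14.5 controls (SD, n = 5 each), and 5.30 ± 0.05 in E13.5 mutants and 5.26 ± 0.08 in E13.5 controls (SD, n = 3 each).

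E14.5 control 4 also stood apart in 4 of the 12 neutrophil and granulocyte precursor genes, which were singled out after their values were seen. S100a8, a calcium-binding protein of neutrophils, was at 8.14 there, and at 3.49 to 5.62 on the other E14.5 arrays. S100a9, its partner, was at 6.08, and the granule genes Ngp and Camp were at 5.11 and 4.28, against highest values of 2.76, 1.57 and 1.43 on the other E14.5 arrays. S100a8 was at 2.43 to 2.90 in E13.5 mutants, against 5.21 and 5.48 in E13.5 controls 1 and 2 and 2.90 in E13.5 control 3. Genotype differences of S100a8 did not pass at either stage, with limma adjusted p values of 0.42 at E14.5 and 0.53 at E13.5. The other 8 genes of that list, among them Elane, Mpo and Cxcr2, were at most 0.26 above every other E14.5 array. On that array these 4 genes were high where the macrophage mean was low, and the part of blood cells in the results was not tested.

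**Figure D3:**
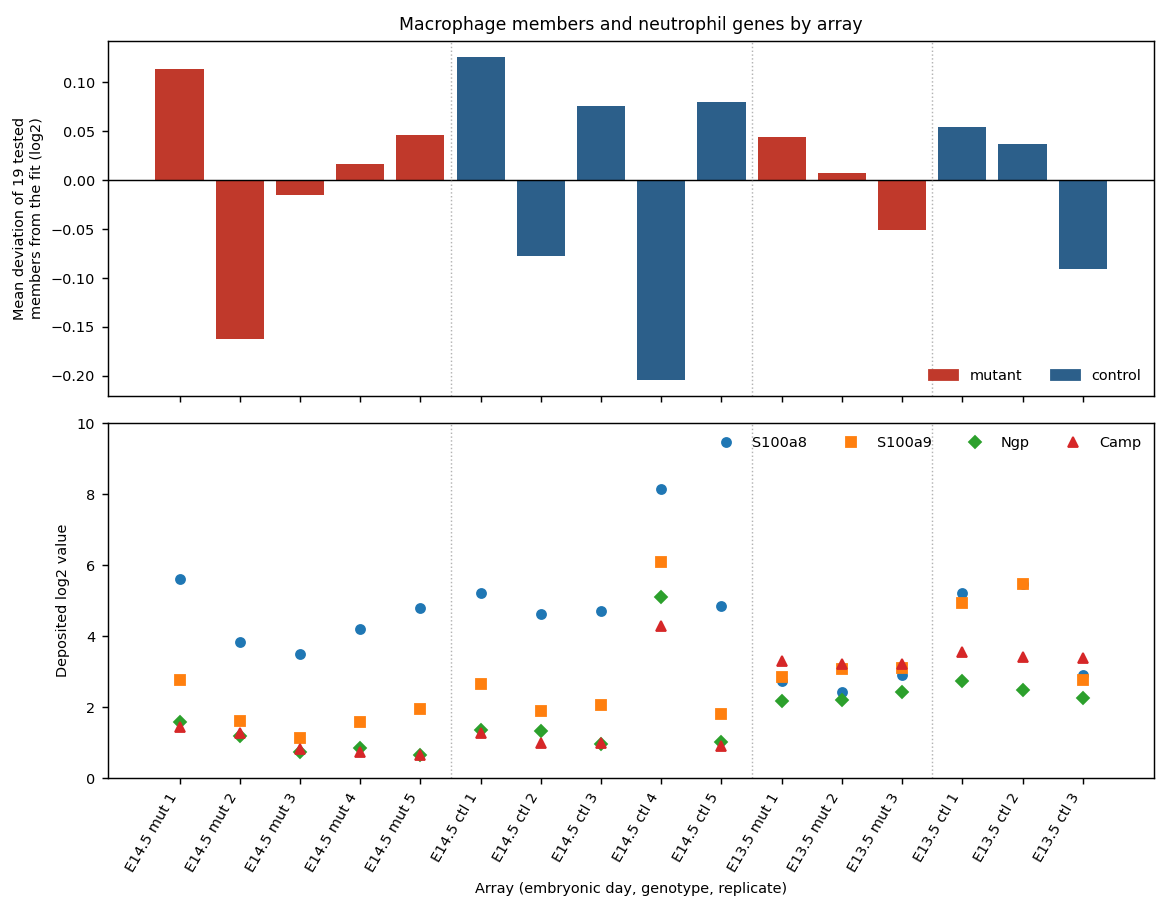
Upper panel, mean deviation of the 19 tested macrophage and myeloid genes from the fitted group value (log2, y axis) on each array (x axis), red for mutants and blue for controls. Lower panel, deposited log2 values of 4 neutrophil genes on the same arrays, with S100a8 at 8.14 on E14.5 control 4.

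Of 55 tested genes outside the members in 12 related myeloid lists, 5 were called, at E14.5 and lower in mutants, where 1.15% of all tested genes were called lower. Lyve1, a hyaluronan receptor of lymphatic endothelium and of some tissue macrophages, fell to 4.53, 4.12, 4.61, 4.68 and 4.37 in E14.5 mutants, against 5.51, 5.89, 5.83, 5.46 and 5.03 in E14.5 controls. Its difference was −1.08 ± 0.16 (SE) with a limma adjusted p of 0.0034, and it was −1.37 in batch 1 and −0.89 in batch 2. Tested within one batch alone it did not pass, with adjusted p values of 0.30 and 0.19, and it passed with each array left out. Of 9 tested genes of the resident macrophage list, 2 were called lower, Lyve1 and Mertk, with 5 below 0 and 4 above. The median of the 9 was −0.21, beside 0.015 over all tested genes. Mertk, a receptor that mediates uptake of dying cells, differed by −0.26 ± 0.06 (SE) with an adjusted p of 0.040 by limma. This call was lost in 19 of 30 other settings, 10 of them with 1 of the 16 arrays left out, with adjusted p values of 0.028 to 0.44. F13a1 and Mrc1, marker genes of tissue macrophages picked after their values were seen, differed by −0.33 and −0.35 and did not pass, with adjusted p values of 0.063 and 0.13 by limma. Of the others, Pf4 differed by −0.21, Cbr2 and Stab1 by 0.05 each, Axl by 0.01 and Msr1 by 0.00.

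Csf1, the ligand of Csf1r, had log2 values of 4.92, 4.82, 4.87, 4.66 and 4.79 in E14.5 mutants, against 5.10, 4.94, 5.17, 5.03 and 5.18 in E14.5 controls. Every mutant array was below every control array, which held for 1.88% of all tested genes at E14.5. The difference was −0.27 ± 0.07 (SE) with a limma adjusted p of 0.046, but the call was lost in 26 of 29 other settings, 14 of them with 1 array left out, with adjusted p values of 0.031 to 0.58. Maf, a transcription factor of macrophages and of other tissues, differed by −0.29 with an adjusted p of 0.045, and Sirpa, an inhibitory receptor of myeloid cells, by −0.28 with 0.049, by limma. These calls were lost in 24 of 31 and 23 of 30 other settings, 15 and 13 of them with 1 array left out. At E13.5 Maf differed by −0.47 with a limma adjusted p of 0.078, and it passed there in 8 of 29 other settings. Il34, the other ligand of Csf1r, was below the filter. The per-array mean of the oral epithelium genes was 7.03 to 7.29 in E14.5 mutants and 6.63 to 6.76 in E14.5 controls, and 6 of 12 were called higher, against 1.48% of all tested genes. Of 12 tested blood vessel endothelium genes 11 were below 0 at E14.5, with a median of −0.15. Of 14 skeletal muscle genes 14 were above 0, with a median of 0.51, and none of either list was called. The median over all tested genes was 0.015. At E13.5, 10 of the 12 endothelium genes were below 0, with a median of −0.05, beside −0.044 over all tested genes. There 0 of the 14 muscle genes were below 0, with a median of 0.65. In the lymphatic list, Mmrn1 differed by −0.37 with a limma adjusted p of 0.091, and Prox1 and Pdpn by 0.01 and 0.06. The part of tissue makeup in these differences was not tested.

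Stage was compared within each genotype, with the limit that the arrays of E14.5 and of E13.5 have different scales. The median of all probe sets was 1.63 to 1.66 on E14.5 arrays and 3.39 to 3.44 on E13.5 arrays, so embryonic stage and array scale cannot be told apart. As deposited, 8 members were called higher and 7 lower at E14.5 in mutants, against 13.4% and 71.9% of all tested genes by limma (85.3% in either direction). In controls 8 were called higher and 4 lower, against 11.6% and 74.9% (86.5% in either direction). Ms4a7, C1qc and Mpeg1, which are among the lower ones in both genotypes, reached a log2 value of 4 on E13.5 arrays only and so entered the test through the stage in which they are high. The member median was 0.13 in mutants and 0.03 in controls, beside −0.56 and −0.63 over all genes. After a quantile normalization of all arrays, 15 members were higher and 0 lower in mutants, and 17 were higher and 0 lower in controls. All genes then split into 34.7% higher and 42.3% lower in mutants, and 33.8% and 43.7% in controls, with medians of −0.06 and −0.08. The member medians were 1.05 and 1.29.

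The C1q chains show how far the scale matters. C1qb was higher at E14.5 by 2.51 in mutants and 2.59 in controls as deposited, and by 3.75 and 3.85 after quantile normalization. C1qa was higher by 0.59 and 0.52 as deposited. C1qc differed by −1.26 in mutants as deposited, and by 0.44 after quantile normalization, so its direction turned with the scaling. C1qb also depended on the probe set: its other probe sets differed by 0.33 and 0.26 in mutants and by 0.41 and 0.47 in controls. As deposited, Laptm5 differed by 1.49 in mutants on the probe set used, and by −3.26, −1.71, −2.85 and −0.66 on its 4 others. By mean percentile among all probe sets of an array, the one used went from 75.2 at E13.5 to 89.4 at E14.5 in mutants. The 4 others, in the same order, went from 69.7 to 55.9, 65.2 to 63.9, 61.6 to 49.9 and 11.3 to 18.3.

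**Figure D4:**
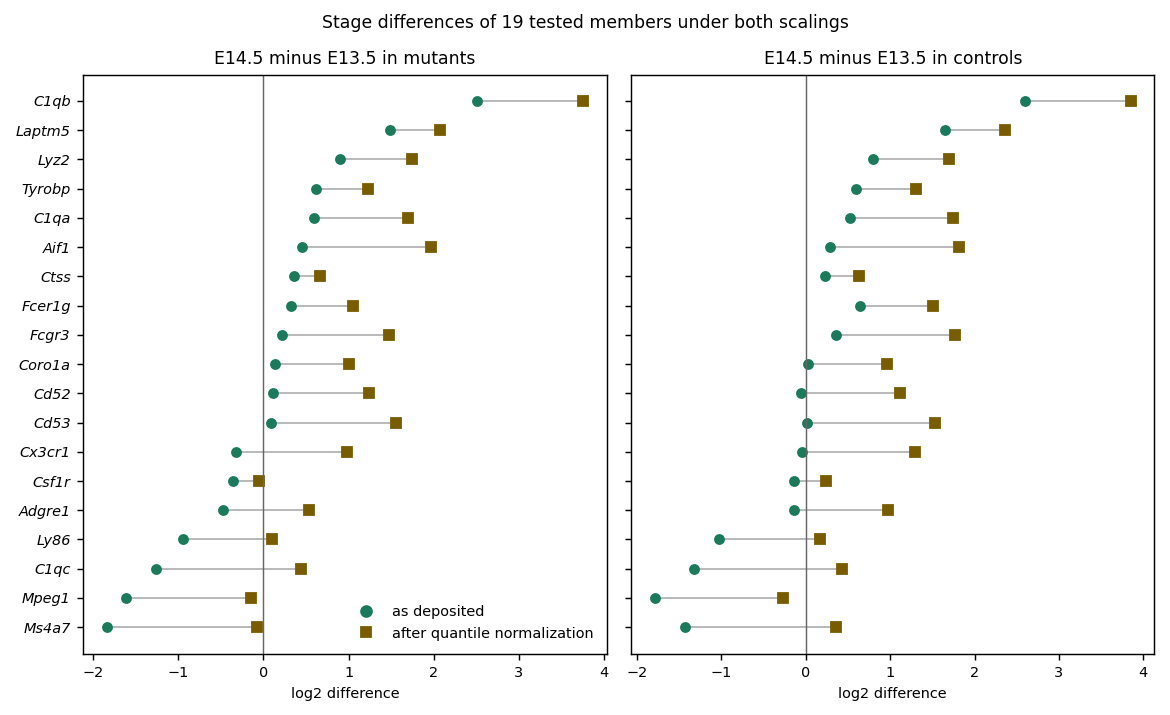
Stage differences on the log2 scale (x axis), E14.5 minus E13.5, for the 19 tested genes (y axis) in mutants (left) and controls (right). Circles are values as deposited and squares are values after quantile normalization, and all 19 squares lie to the right of their circles.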

How the data were processed

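RNA of 16 arrays was compared in 4 groups of stage and genotype, taken from the labels. The authors deposited log2 expression values for 45101 probe sets, made with GCRMA per the submitters' processing notes; its version is not given in the sources used here. Of these probe sets, 34958 have 1 gene in the platform annotation, 932 have several and 9211 have none. For each of 18194 genes the single-gene probe set with the highest mean was used, and 11 members have several. The 11116 genes with a log2 value of at least 4 on at least 3 arrays were tested. One limma 3.58.1 fit (R 4.3.3) held group and the labelled E14.5 batch, with 11 residual degrees of freedom, and p-values were adjusted by Benjamini-Hochberg over all tested genes at 0.05. The fit was checked on simulated data. Arrays of a group correlated at 0.993 to 0.997, and 0 pairs were identical. The number of arrays limits the precision, and 3 tested members reached the filter on fewer than 7 arrays.

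The members and the other lists were chosen with earlier results of these data known. Per-array values are given, for each role, for the member with the highest mean and the member with the smallest p at E14.5; others shown per array were chosen after their values were seen. Of other lists, genes that passed are named. The 10 genes most correlated with the member mean are named too, leaving out RIKEN clones, predicted genes and clone-like symbols. Alternatives varied the filter, probe set, scaling, variance model, batch term, replicate block, covariates and arrays. Promoters came from RefSeq tables. Figures used Python 3.11.15 and matplotlib 3.10.9.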

Additional observations from a re-analysis of the deposited data

Results flagged for a closer look

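In 5 of 58 groups of 5 arrays, 1 array lay far from the other 4 of its group, and chance gives about 1 in 20. Cd14 was at 1.73 on E14.5 mutant 1 and at 1.30 to 1.40 on the other E14.5 mutants. Trem2, a lipid receptor of macrophages, was at 1.29 on E14.5 mutant 4 and at 1.05 to 1.10 on the other E14.5 mutants. Ptprc was at 3.64 on the same array, within the range of the E14.5 controls, and at 2.94 to 3.12 on the other E14.5 mutants. C1qc was at 3.23 on E14.5 control 3 and at 2.73 to 2.86 on the other E14.5 controls. Lyz2 was at 6.00 on E14.5 control 5 and at 6.41 to 6.55 on the other E14.5 controls.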

How the results depend on the processing

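No member passed at E13.5 under 29 other settings, and no test of the stage difference of the genotype effects passed under 28. At E14.5 the count of members called was 0 in the fit reported, and 0 to 1 when each array was left out in turn, with Adgre1 called without E14.5 control 4. The member median at E13.5 was 0.022, and −0.058 to 0.081 with an array left out, the lowest without E13.5 control 3; at E14.5 it was −0.002, and −0.051 to 0.099. For stage in mutants, 15 members were called, 24 with no filter, 7 with the filter at a log2 value of 6, and 13 to 16 with an array left out. In controls these were 12, 20, 5 and 11 to 13. Fewer or more genes tested set the counts under the filters. Over all genes, 292 were called at E14.5 and 5 to 371 under other settings, and 11 at E13.5 and 6 to 85. Replicate numbers did not pair the arrays: deviations of same-numbered arrays at E14.5 correlated at −0.45 to 0.03, and those at E13.5 at −0.17 to 0.17. With a replicate block, 0 members were called at E14.5 and 0 at E13.5, and 104 and 6 of all genes, while the stage counts were 16 in mutants and 12 in controls. Weak signal limits the 9 members below the filter, and at E14.5 also Ms4a7, C1qc and Mpeg1.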
